A study of Mus musculus with 4 samples.

Results

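Bone morphogenetic protein (BMP) ligands and the secreted proteins that block them were examined in bulge cells of mouse skin. The set holds 10 named genes of the 55536 in the count table, chosen by name: the 4 ligands Bmp2, Bmp4, Bmp6 and Bmp7, and the 6 extracellular antagonists or modulators Grem1, Fst, Fstl1, Twsg1, Chrd and Nbl1. Each was found by its symbol, and each had enough counts to be tested. The study profiled the bulge, where hair follicle stem cells reside, in 2 libraries from mice with Cdh5CreERT2-driven knockout of Alk1 and 2 libraries from littermates that carry no Cre. Every mouse had the C57BL/6 background, and every mouse, controls included, was given tamoxifen into the peritoneum (100 µg per g of body weight) at postnatal day 17 and sampled at postnatal day 20, 3 days later. The knockout mice were Alk1 flox/flox, and the sources used here do not give the controls' Alk1 alleles. Cdh5 is an endothelial gene, so its promoter directs the deletion to vessels and not to the bulge cells that were sequenced. Those sources also do not give how bulge cells were isolated or how many mice each library holds, and p-values measure the spread between these libraries. The study's title names an Alk1-BMP4 axis of blood endothelium, and the comparison asks whether the BMP signals made in the bulge itself differ when Alk1 is lost from vessels.

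BMPs are secreted dimers that bind paired type I and type II receptor kinases, which phosphorylate SMAD1, SMAD5 and SMAD9 and so switch on targets such as the Id genes. Antagonists bind the ligand outside the cell and keep it from its receptor: Grem1 and Nbl1 (DAN) belong to the DAN family of cystine-knot proteins, Chrd and Twsg1 work together, and Fst binds activins most tightly and BMPs more weakly. In the hair follicle, BMP signals from the bulge, the inner bulge and the dermis keep stem cells at rest, and a rise of antagonists around the follicle accompanies the start of growth.

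The upstream sequences of 3 members are shown, since Bmp4 is the ligand of the study's title and Grem1 and Twsg1 ordered the 4 libraries alike (below, with their values). That order was noticed after the values were seen and was shared by 4.38% of tested genes. A link between these sequences and the order was not tested. Each is the window from 250 to 51 bases before the RefSeq transcription start (GRCm38.p6), 5′ to 3′ on the gene's strand, and none of the 3 windows holds an annotated exon base of its gene. Capitals mark CG dinucleotides. The windows are chr14:46390720-46390919, minus strand, for Bmp4, chr2:113758699-113758898, minus strand, for Grem1, and chr17:65951238-65951437, minus strand, for Twsg1.
Bmp4: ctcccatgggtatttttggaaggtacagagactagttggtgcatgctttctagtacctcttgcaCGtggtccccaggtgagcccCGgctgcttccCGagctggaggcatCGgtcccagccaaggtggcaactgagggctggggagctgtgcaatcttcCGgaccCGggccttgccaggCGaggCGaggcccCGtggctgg
Grem1: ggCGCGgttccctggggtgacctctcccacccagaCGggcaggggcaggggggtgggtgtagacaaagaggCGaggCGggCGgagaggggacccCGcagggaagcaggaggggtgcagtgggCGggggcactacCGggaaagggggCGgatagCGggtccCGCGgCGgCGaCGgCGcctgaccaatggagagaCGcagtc
Twsg1: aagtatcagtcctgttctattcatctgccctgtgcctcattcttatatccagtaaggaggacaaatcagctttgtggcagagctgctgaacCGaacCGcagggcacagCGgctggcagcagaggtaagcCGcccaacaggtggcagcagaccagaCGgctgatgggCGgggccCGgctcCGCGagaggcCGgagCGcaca
The Bmp4 window holds 9 CG dinucleotides, that of Grem1 18 and that of Twsg1 11, where the median of 32851 promoter windows of the same length was 4. RefSeq entries were found for 7 members, and all 7 windows lay above that median, with Nbl1 at 25, Chrd at 24, Bmp6 at 19 and Fstl1 at 11. Part or all of the Bmp6 and Fstl1 windows (200 and 132 bases) is annotated as exon of the gene in GENCODE. The palindrome GGCGCC, a motif bound by BMP SMADs, was found on either strand in 3 of the 7 windows (Grem1, Nbl1 and Chrd) and in 7.15% of all windows. These 3 windows were 73%, 74% and 78.5% G and C, against a median of 51.5% over all windows. Windows matched for base content were not compared, so these counts do not show an excess of the motif. The letters TATAAA were found in 0 of the 7 and in 9.14% of all windows. Bases nearer the start than 51 were not searched, so this count does not show whether these genes have a TATA box.

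Libraries held 16326906 to 29130974 counts, of which the 10 members took 0.144% to 0.155%. Counts were above 0 for 24037 genes, and 14259 entered edgeR's quasi-likelihood test, with Benjamini-Hochberg adjustment over all of them and a threshold of 0.05. Of the bulge marker list, the 2 genes of highest level were Krt15 at 29090 to 36020 CPM (counts scaled to a common effective library size) and Krt5 at 25490 to 31490 CPM. Krt5 is not specific to the bulge. Acvrl1, which encodes Alk1, measured 21.6 and 24.3 CPM in the controls, and 17.9 and 23.1 CPM in the knockouts (log2 fold change -0.16 ± 0.19, SE), and because the deletion is endothelial and Cdh5 itself had 23 and 9 counts in controls and 3 and 3 in knockouts, this level does not check the labels. Libraries also differed in markers of other cells: 8 interfollicular differentiation genes summed to 12200 and 4139 CPM in the controls, and 8027 and 3641 CPM in the knockouts, and 10 sebaceous gland genes to 989 and 554 CPM and 611 and 421 CPM. In bulk RNA, fewer cells of a type and less RNA per cell cannot be told apart.

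Of the 6 antagonists, 5 were more abundant than every ligand in bulge cells. Levels were compared between genes as CPM per kilobase of exon (RPKM), with the mean and SD over the 4 libraries. Nbl1 stood highest at 230.2 ± 30.9 RPKM, above 98.8% of the tested genes. Fst followed at 114 ± 10.9 RPKM, Grem1 at 45.4 ± 11.7, Twsg1 at 31.2 ± 4.29 and Fstl1 at 16.8 ± 4.75. The ligands Bmp7 and Bmp2 came next at 8.11 ± 2.58 and 7.19 ± 0.84 RPKM, above 63.2% and 60.1% of tested genes. Bmp4 measured 1.00 ± 0.29 RPKM and Bmp6 0.48 ± 0.12 RPKM, above 21.2% and 12.8% of tested genes. Chrd was the one antagonist at the bottom, at 0.27 ± 0.099 RPKM.

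**Figure D1:**
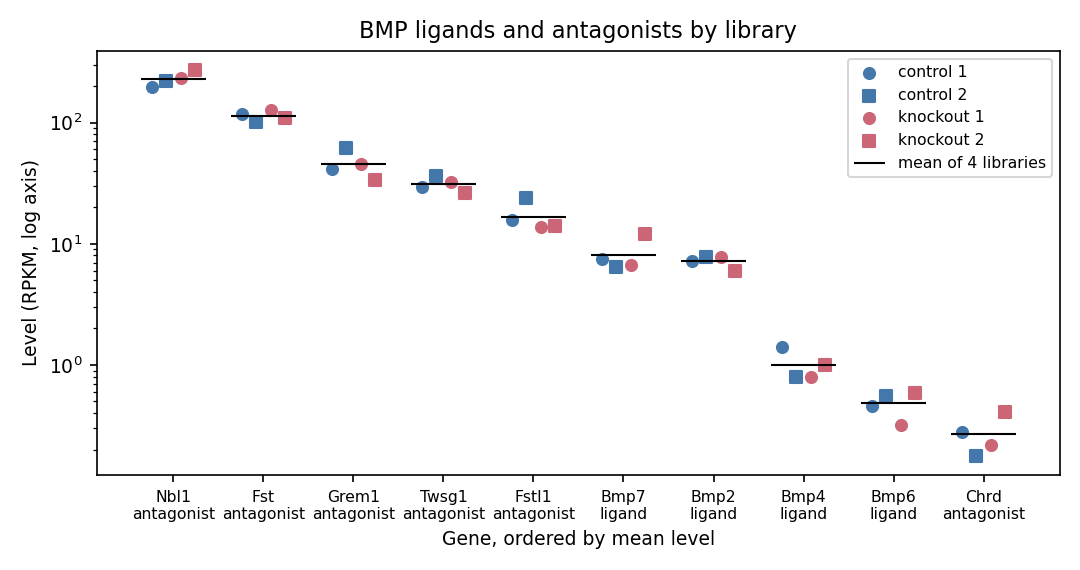
Level of each of the 10 genes in each library (RPKM on a log axis), with blue for control and red for knockout libraries, circles for replicate 1, squares for replicate 2 and a bar for the mean of the 4 libraries. The antagonists Nbl1, Fst, Grem1, Twsg1 and Fstl1 lie above every ligand in each library, and Chrd lies lowest on average.

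In the order of levels, 6 of the 9 neighbouring pairs had ranges over the 4 libraries that did not overlap. The ranges of Grem1 (from 33.6 RPKM) and Twsg1 (up to 36.4 RPKM) overlapped, although Grem1 was the higher of the pair within each of the 4 libraries. The same held for Bmp6 (from 0.32 RPKM) and Chrd (up to 0.41 RPKM). Bmp7 and Bmp2 were not separated: Bmp7 was higher in 2 of the 4 libraries, and the mean of Bmp2 exceeded that of Bmp7 when knockout 2 was left out. The widest step was from Bmp2 to Bmp4, a 7.17-fold ratio of means. Summed per length, the 6 antagonists reached 402 and 442 RPKM in controls and 452 and 455 RPKM in knockouts, against 16.4 and 15.5 and 15.6 and 19.5 RPKM for the 4 ligands. Ligands therefore made up 3.66% ± 0.38 of the summed level in controls and 3.73% ± 0.55 in knockouts (SD, n = 2 each), and these shares overlapped.

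None of the 10 members passed the threshold between knockout and control. With edgeR, 0 of 10 members were called where 0.00701% of tested genes were (1 gene, which is no member), and DESeq2 also called 0 of 10 where it called 0.587% of genes. Limma-voom called 0 as well. At an unadjusted edgeR p under 0.05, 1 of 10 members (Fstl1) stood out, near the 10.7% of all tested genes. Both knockouts lay above both controls for 1 member (Nbl1), where 21.3% of tested genes did so, and below both for 1 member (Fstl1), where 23.6% did. Groups therefore did not overlap for 2 of 10 members, against 44.9% of all tested genes. The members' median log2 fold change was -0.14, with 4 above 0 and 6 below, against a median of -0.02 over all tested genes.

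**Figure D2:**
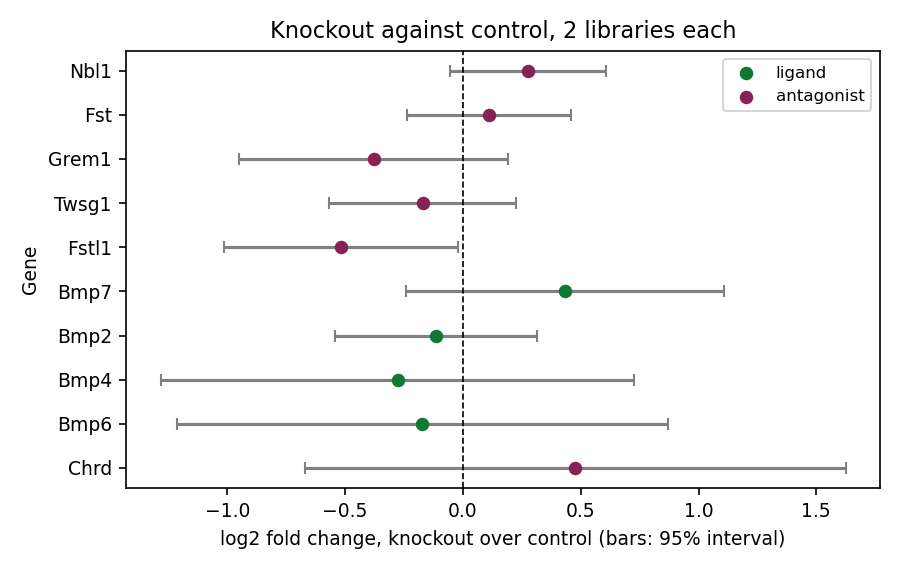
Log2 fold change of knockout over control for each member (points, green for ligands and purple for antagonists) with its 95% interval from the edgeR fit, 2 libraries per group. The interval of Fstl1 alone lies wholly below 0, and its adjusted p was 0.45.

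Gene positions are those of GENCODE M21 on GRCm38. Among the antagonists, Nbl1 (ENSMUSG00000041120, chr4:139082284-139092993, minus strand), which binds BMPs through a DAN domain, measured 402 and 444 CPM in the controls, and 475 and 551 CPM in the knockouts. Both knockouts were above both controls, and the highest library was 1.37-fold above the lowest. The fitted log2 fold change was 0.28 ± 0.14 (SE; edgeR adjusted p = 0.50), and the 95% interval of the fold ran from 0.963 to 1.52. Fst (ENSMUSG00000021765, chr13:114452290-114458951, minus strand), which encodes follistatin, measured 539.7 and 465 CPM in the controls, and 582 and 504 CPM in the knockouts. The groups overlapped, with replicate 2 the lower in each, and the fold interval ran from 0.849 to 1.38 (log2 fold change 0.11 ± 0.14, adjusted p = 0.78).

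Fstl1 (ENSMUSG00000022816, chr16:37776873-37836514, plus strand), a secreted follistatin-like glycoprotein that can bind BMP4, had the smallest p of the members. It measured 77.1 and 117 CPM in the controls, and 67.4 and 68.2 CPM in the knockouts. The knockouts were nearly equal, both below the lower control, and control 2 was the library that stood high. This gave a log2 fold change of -0.52 ± 0.20 (unadjusted p = 0.043, edgeR adjusted p = 0.45), a fold of 0.495 to 0.985 by its 95% interval. Without control 2 it was -0.16 (adjusted p = 0.96). With no count filter Fstl1 passed in edgeR (-0.53, adjusted p = 0.032), as did 430 of 24037 genes, and it passed in no other of the 13 alternatives. In that fit edgeR's median prior degrees of freedom were infinite (4.17 in the main fit). The spread of the typical gene was then taken wholly from the trend over genes, not from its own libraries. Beside Fstl1, 10 dermal fibroblast and dermal papilla markers summed to 183 and 233 CPM in the controls, and 136 and 141 CPM in the knockouts. The libraries fell in the same order as for Fstl1, an order that 5.36% of tested genes also had. The markers' sum came mostly from Col1a1, a fibrillar collagen chain (117 and 148 CPM, then 89.5 and 75.3 CPM), and Col1a2 (62.2 and 80.9 CPM, then 43.8 and 56.5 CPM). The knockouts of Col1a1 fell in the reverse order to those of Fstl1. Other tested members ran the other way or were low: Dcn, which encodes decorin (0.78 and 1.22 CPM, then 0.92 and 3.26 CPM), and Col3a1 (1.02 and 0.95 CPM, then 0.55 and 2.97 CPM) were highest in knockout 2, and the list's median log2 fold change was -0.13. Lum, a fibroblast proteoglycan, had 0 counts in both controls and 1 in each knockout, and Twist2, a dermal transcription factor, had 0 in all 4 libraries. The 7 melanocyte markers summed to 114 and 134 CPM and then 85.8 and 89.3 CPM, also in that order, but nearly all of the sum was Mitf (104 and 117 CPM, then 71.6 and 74.5 CPM), and Dct, a melanin synthesis enzyme and the next in level, differed in order (7.24 and 11.2 CPM, then 11.1 and 11.4 CPM). The part of dermal cells or melanocytes in the Fstl1 values was not tested.

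Grem1 (ENSMUSG00000074934, chr2:113746164-113758646, minus strand), which encodes gremlin, a strong inhibitor of BMP2 and BMP4, measured 171 and 255 CPM in the controls, and 188 and 139 CPM in the knockouts. Control 2 was highest and knockout 2 lowest, and the groups overlapped. The fitted log2 fold change was -0.38 ± 0.23 (edgeR adjusted p = 0.58, fold interval 0.518 to 1.14). It ranged from -0.64 without control 1 to -0.04 without control 2. Twsg1 (ENSMUSG00000024098, chr17:65921972-65951226, minus strand), which encodes twisted gastrulation, a partner of chordin that also modulates BMPs on its own, measured 153 and 188 CPM in the controls, and 167 and 136 CPM in the knockouts. Its libraries fell in the same order, and its log2 fold change of -0.17 ± 0.16 (adjusted p = 0.71, fold interval 0.674 to 1.17) became 0.01 without control 2. Chrd (ENSMUSG00000006958, chr16:20733127-20742384, plus strand), which encodes chordin, was at the edge of detection, with 29 and 33 counts in controls and 30 and 53 in knockouts (1.74 and 1.12 CPM, then 1.38 and 2.54 CPM). Only knockout 2 stood apart, and the estimate of 0.48 ± 0.47 (adjusted p = 0.72) became -0.02 without it. The fold interval of Chrd ran from 0.628 to 3.08, so neither a lower nor a higher level in the knockouts was excluded. Thpo, on the other strand, shares 239 exon bases with Chrd but had at most 1 count in a library.

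Among the ligands, Bmp7 (ENSMUSG00000008999, chr2:172868012-172940321, minus strand), a ligand also known from kidney and eye development, measured 29.9 and 25.6 CPM in the controls, and 26.9 and 47.9 CPM in the knockouts. Knockout 2 was 1.87-fold above the lowest library, while knockout 1 lay between the controls. This gave a log2 fold change of 0.43 ± 0.28 (edgeR adjusted p = 0.59, fold interval 0.846 to 2.15). Leaving out knockout 1 gave 0.79 (adjusted p = 0.073), and leaving out knockout 2 gave -0.04. Bmp2 (ENSMUSG00000027358, chr2:133552159-133562885, plus strand), a ligand made by follicle epithelium and dermis, measured 25.4 and 27.7 CPM in the controls, and 27.7 and 21.4 CPM in the knockouts, and knockout 2 was the low library. Its log2 fold change was -0.11 ± 0.18 (adjusted p = 0.82, fold interval 0.685 to 1.24), and 0.06 without knockout 2.

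Bmp4 (ENSMUSG00000021835, chr14:46383520-46390669, minus strand), the ligand in the study's title, was rare in bulge cells, with 53 counts in each control and 39 and 47 counts in knockouts. Scaled for depth these were 3.17 and 1.80 CPM in the controls, and 1.79 and 2.25 CPM in the knockouts. Control 1 stood high, and the other 3 libraries lay together. The fitted log2 fold change was -0.28 ± 0.41 (edgeR adjusted p = 0.82), and it was 0.17 without control 1. By the 95% interval, any fold of Bmp4 from 0.411 to 1.66 remained possible at this depth. The 8 markers of blood endothelium, which the study's title ties to BMP4, summed to 10.4 and 4.84 CPM in the controls, and 4.32 and 15.8 CPM in the knockouts. Of these, Pecam1, an endothelial adhesion molecule, measured 3.77 and 1.39 CPM, then 0.41 and 2.87 CPM, highest in control 1 as Bmp4 was. Cdh5 (1.38 and 0.30 CPM, then 0.14 and 0.14 CPM), Esam and Flt1 were also highest in control 1, at 23 counts or fewer per library. Tek, the angiopoietin receptor and the most abundant of the list, was instead highest in knockout 2 (2.69 and 2.07 CPM, then 3.17 and 10.6 CPM). It made up most of the list's sum in that library. Kdr and Emcn were also highest in knockout 2, at 17 and 8 counts there. The part of endothelial cells in the Bmp4 values was not tested. Gm15217, which shares 89 exon bases with Bmp4 on the other strand, had 0 counts.

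Bmp6 (ENSMUSG00000039004, chr13:38345107-38500302, plus strand), a ligand known from the inner bulge layer beside the stem cells, had 30 and 64 counts in controls and 27 and 48 counts in knockouts (1.80 and 2.17 CPM, then 1.24 and 2.30 CPM). Knockout 1 was lowest and knockout 2 highest, so the knockouts enclosed both controls. This gave a log2 fold change of -0.17 ± 0.43 (edgeR adjusted p = 0.89, fold interval 0.431 to 1.83), and 0.20 without knockout 1. Txndc5, a protein disulfide isomerase gene on the opposite strand, shares 224 exon bases with Bmp6 and had 2620 and 5139 counts in controls and 3921 and 2900 in knockouts. The sources used here do not give the strand setting of the counting, so reads of Txndc5 among the counts of Bmp6 cannot be told apart from its own. The 6 markers of the inner bulge and companion layer had log2 fold changes above 0 in 6 of 6, with a median of 0.52. Over all 14259 tested genes, 6770 were above 0. None of the 6 markers passed the threshold (smallest edgeR adjusted p = 0.43). Krt6a, a keratin of that layer, measured 703 and 739 CPM in the controls, and 1238 and 717 CPM in the knockouts, highest in knockout 1, where Bmp6 was lowest. Krt16 (5.45 and 2.54 CPM, then 8.78 and 5.75 CPM) and Krt75 were also highest in knockout 1. Krt17 (555 and 483 CPM, then 720 and 845 CPM), Fgf18 and Krt79 were instead highest in knockout 2, where Bmp6 was highest too, so the list did not follow Bmp6 in 1 direction. The part of inner bulge cells in the Bmp6 values was not tested.

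Libraries within a group often differed more than the groups did. Over the 10 members, the median absolute difference between the 2 libraries of a group was 0.41 (log2 CPM, averaged over both groups) and that between group means 0.26, against 0.24 and 0.21 over all tested genes. A difference of single libraries carries more noise than one of means. Grem1, Twsg1 and Bmp2 ordered the libraries alike, with control 2 highest, then knockout 1, control 1 and knockout 2, an order that 4.38% of tested genes also had. For Bmp2 the first 2 of these were nearly tied, at 27.74 and 27.72 CPM. Bmp7 and Chrd shared another order, with knockout 2 highest, then control 1, knockout 1 and control 2, which 4.24% of tested genes had. These groups were noticed after the values were seen. Knockout 2 was thus the highest library for 4 members and the lowest for 3, where it was highest for 29.9% and lowest for 30.5% of tested genes. It was also the highest library for Tek of the endothelial list, and for Cdh3, a cadherin of the hair germ (143 and 142 CPM, then 166 and 247 CPM). In the hair germ list, Ptch1 (61.7 and 70.8 CPM, then 39.9 and 81.2 CPM), Gli1 and, narrowly, Lef1 were also highest in knockout 2. That list summed to 286 and 320 CPM in the controls, and 277 and 423 CPM in the knockouts. Neither list followed in every gene. Dlx3 of the hair germ was lowest in knockout 2 (20.5 and 25.2 CPM, then 23.6 and 12.1 CPM). Cdh5, Flt1 and Esam of endothelium were lower in knockout 2 than in control 1. The part of these cells in the values of Bmp7 and Chrd was not tested.

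**Figure D3:**
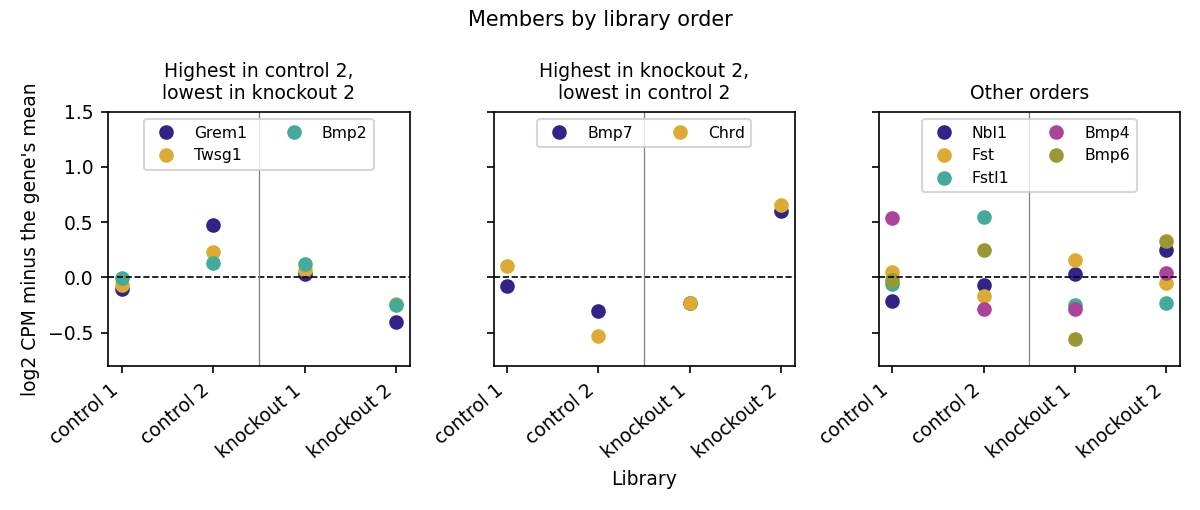
Log2 CPM of each member in each library minus that member's mean over the 4 libraries, in 3 panels by the order in which the libraries fell, with controls left of the grey line and knockouts right of it. In the left panel control 2 is highest and knockout 2 lowest for Grem1, Twsg1 and Bmp2, and in the middle panel knockout 2 is highest for Bmp7 and Chrd.

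Of 5 lists with the rest of the BMP pathway, no gene passed the threshold, with a smallest adjusted p of 0.43 by edgeR. For comparison with the direction counts below, 6770 of the 14259 tested genes lay above 0 and 7489 below. Among 16 other secreted antagonists and modulators, 11 were tested, 5 above and 6 below 0, with a median of -0.04. Sostdc1, which encodes a BMP and WNT antagonist of follicles, measured 242 and 298 CPM in the controls, and 338 and 234 CPM in the knockouts. At 156 ± 27.4 RPKM it lay between Nbl1 and Fst. Crim1, a membrane-anchored BMP binder, was at 55.1 ± 7.24 RPKM, with 340 and 374 CPM in the controls, and 270 and 337 CPM in the knockouts. Nog, which encodes noggin and was picked out once its values were known, was at 39.2 ± 2.87 RPKM, between Grem1 and Twsg1, with 70.4 and 68.3 CPM in the controls, and 67.8 and 59.4 CPM in the knockouts. The smallest p values were those of Smoc1, a matrix protein that modulates BMPs (-0.43 ± 0.17, unadjusted p = 0.047, edgeR adjusted p = 0.46), and, on the higher side, Fstl3, a relative of Fst (0.17 ± 0.12, adjusted p = 0.63). Sost and Cer1 had 0 counts in all 4 libraries.

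Of 13 other BMP and GDF ligands, only 3 had counts enough to test, 1 above and 2 below 0. Gdf10, also called BMP3B, was the most abundant at 2.59 ± 0.74 RPKM, above Bmp4 and below Bmp2, and measured 9.64 and 12.6 CPM in the controls, and 12.8 and 18.9 CPM in the knockouts (log2 fold change 0.51 ± 0.26, edgeR adjusted p = 0.52). Gdf5, a ligand known from joints, was at 0.36 ± 0.13 RPKM (-0.57 ± 0.55, adjusted p = 0.71). Bmp10, Bmp15 and Gdf2 were at 0 counts in each library, and Gdf2 encodes BMP9, a high-affinity ligand of Alk1. Of 10 genes that process BMPs or hold them in the matrix, 9 were tested, 2 above and 7 below 0, with a median of -0.24. Furin, the convertase that cleaves BMP precursors, measured 139 and 151 CPM in the controls, and 121 and 161 CPM in the knockouts. Pcsk6, another proprotein convertase, measured 80.7 and 83.8 CPM in the controls, and 60.3 and 46.7 CPM in the knockouts. Both Pcsk6 knockout values lay below both controls, and its log2 fold change was -0.62 ± 0.16 (unadjusted p = 0.0067, edgeR adjusted p = 0.43). Bmp1, a protease that cuts chordin, gave 0.11 ± 0.17 (adjusted p = 0.82).

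Receptors and co-receptors had 1 of 11 tested genes above 0 and 10 below, with a median of -0.24. Both knockouts lay below both controls for 4 of the 11, where 23.6% of all tested genes did so. At an unadjusted edgeR p under 0.05, 1 receptor gene stood out in each direction. Bmpr1a, the main BMP type I receptor of epidermis, was the most abundant at 25.9 ± 3.12 RPKM and the one above 0, with 143 and 153 CPM in the controls, and 187 and 174 CPM in the knockouts (0.29 ± 0.12, unadjusted p = 0.049, edgeR adjusted p = 0.46). Rgma, a BMP co-receptor, was next at 15.5 ± 2.37 RPKM, with 93.4 and 94.0 CPM, then 66.4 and 89.4 CPM. Neo1, which encodes neogenin, the receptor for Rgm proteins, gave -0.53 ± 0.13 (unadjusted p = 0.0069, adjusted p = 0.43), with 141 and 160 CPM in the controls, and 112 and 97.0 CPM in the knockouts. Of 15 BMP SMADs and targets, 9 were above and 6 below 0, with a median of 0.08. Id1, an inhibitor of differentiation induced by BMP, measured 177 and 187 CPM in the controls, and 240 and 144 CPM in the knockouts, so the knockouts enclosed the controls. Id2 measured 286 and 357 CPM, then 386 and 385 CPM (0.26 ± 0.15, edgeR adjusted p = 0.54). Atoh8, a BMP-induced transcription factor, gave 0.49 ± 0.20 (adjusted p = 0.46), and Smad5, a BMP-specific SMAD, -0.31 ± 0.11 (unadjusted p = 0.029, adjusted p = 0.43).

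**Figure D4:**
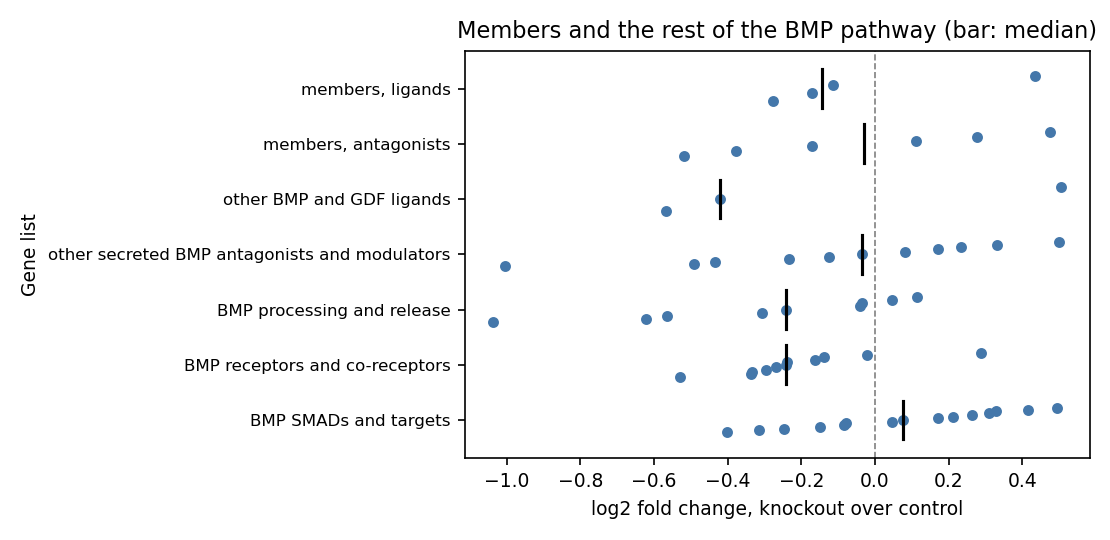
Log2 fold change of knockout over control for each tested gene (points) of the 2 groups of members and the 5 lists of other BMP pathway genes, with a black bar at each list's median. Medians lie between -0.42 (3 other ligands) and 0.08 (SMADs and targets), and no gene shown passed the threshold.

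Other marker lists gave the makeup of these libraries. Pericyte and smooth muscle genes were near 0 (Tagln at 0.46 to 1.63 CPM) apart from Cspg4, a proteoglycan at 483 to 627 CPM. Immune genes were led by Cd74 (25.4 to 31.4 CPM) and H2-Ab1 (23.4 to 29.3 CPM). Krt10, a keratin of differentiating epidermis, ran from 1768 to 6678 CPM and Krt1 from 546 to 2354 CPM, higher in replicate 1 of each group. Fasn and Scd1, enzymes of lipid synthesis in the sebaceous gland list, ran from 140.0 to 260 CPM and from 121 to 319 CPM. Ptch1, the hedgehog receptor of the hair germ list, ran from 39.9 to 81.2 CPM. No member of the 10 BMP genes shared the order of libraries of Krt10 or of the sebaceous sum, in which control 1 was highest, then knockout 1, control 2 and knockout 2. The share of tested genes with that order was not counted. Each order that a member had was shared by only 2.12% to 6.57% of tested genes, so 0 of 10 says little. The part of epidermal and sebaceous cells in the members' values was not tested.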

How the data were processed

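The authors deposited raw counts per gene for 4 libraries, per the labels, in 1 table of 55536 genes. Per the submitters' processing notes, Trim Galore 0.6.0, cutadapt, FastQC, STAR 2.7.0e and DESeq2 1.26.0 were used with GRCm38 (mm10). The sources used here do not name a counting tool, a strand setting or an annotation release. Libraries were directional and polyA-selected, per the labels' protocols. All 55536 identifiers matched GENCODE M21 (GRCm38), which gave symbols, exon lengths and overlaps.

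Counts were analysed with R 4.3.3. Genes kept by filterByExpr in edgeR 4.0.16 were normalized with TMM and tested with a robust quasi-likelihood fit without covariates, with Benjamini-Hochberg adjustment over the 14259 genes tested. CPM uses effective library size, and RPKM divides it by the kilobases of merged exons. SE is the log2 fold change over the root of F, and intervals use the fit's degrees of freedom. Log2 CPM used a prior count of 2. Replicates differed by more than sampling noise (chi-square per degree of freedom 34.5 in controls and 45.0 in knockouts).

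The members and lists were chosen with earlier results of these data known. All 10 members were named. From each pathway list, with no gene past the threshold, the 2 of highest level per length and the 1 of smallest p in each direction were named, and from each marker list the 2 of highest mean CPM. Genes outside this rule (Nog, Cdh5, Acvrl1, Lum, Twist2, Dcn, Col3a1, Fgf18, Krt79, Krt16, Krt75, Kdr, Emcn, Flt1, Esam, Dlx3, Gli1, Lef1, the genes that overlap a member and those at 0 counts) were chosen after their values were seen or for their position. Alternatives were upper-quartile and RLE normalization, no filter, at least 50 counts in 2 libraries, DESeq2 1.42.0, limma-voom (limma 3.58.1), a replicate block, removal of length and GC trends (splines with 4 degrees of freedom), each library left out in turn, and, for levels, the longest transcript as length. No outlying library could be tested for with 2 per group. RefSeq promoter entries matched 7 of 10 members. A result for 1 gene of the lists is not reported here.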

Additional observations from a re-analysis of the deposited data

How the results depend on the processing

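The number of genes called moved from 1 to 430 without a count filter, 80 with DESeq2, 2 with length and GC trends removed and 1 to 65 with a library left out. With the replicate number as a block it was 106, and 63 with the block and length and GC removal together. The labels do not say that the numbers pair mice, same-numbered libraries had correlated deviations of 0.12, and there were 2 pairs, so the block shows no pairing. The number of members called was 0 in the main fit and in 12 of 13 alternatives, and 1 (Fstl1) without a count filter. EdgeR draws each gene's spread toward a trend over genes, and its prior degrees of freedom measure how strongly. Their median was 4.17 in the main fit, 22.6 with the block and infinite without a filter. Calls made with more prior weight rest less on the spread between the 2 libraries of a group. A filter of 50 counts in 2 libraries left 8 members to test. Nbl1, Fst, Grem1 and Fstl1 kept their direction in each of the 13 alternatives. For Fst (0.001 without knockout 1) and Grem1 (-0.037 without control 2) the log2 fold change came close to none. With a library left out, Bmp4 ran from -0.63 to 0.17, Bmp6 from -0.68 to 0.20, Bmp2 from -0.32 to 0.061, Bmp7 from -0.040 to 0.79, Chrd from -0.022 to 0.85 and Twsg1 from -0.33 to 0.010 (log2 fold change). The order of levels held in each setting except without knockout 2, where Bmp7 and Bmp2 changed places. The ligand share of the summed level was 3.70% and became 3.13% with the longest transcript as length. Depth limits Bmp4, Bmp6 and Chrd most, with 27 to 64 counts per library. Left-out fits assume that a lone library varies like the other group.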
